A study of Homo sapiens with 12 samples.

Results

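The histone genes were followed across 12 arrays of 2 human cell lines in which Wnt coactivators had been depleted by siRNA. Members were all array probes whose RefSeq identifier mapped to a histone gene, which gave 102 probes of 79 genes among 43376 non-control features. Of these, 77 probes of 65 genes had an older HIST name and were taken as the replication-dependent cluster genes. The other 25 probes of 14 genes were taken as variants. This split rests on the names alone. The clusters held 6 probes for H1, 21 for H2A, 20 for H2B, 16 for H3 and 14 for H4. Each probe was printed as 1 spot, and 16 genes had more than 1 probe.

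The study asked which transcripts depend on the β-catenin coactivator MLLT10/AF10 and its partner DOT1L, and set their knockdown beside those of BRG1 and P300. Ls174T colorectal cancer cells, whose Wnt signalling runs without added ligand, received 15 nM of control, β-catenin, MLLT10, BRG1 or P300 siRNA for 72 h. HEK293T embryonic kidney cells, in which the pathway is intact, received 15 nM of control, MLLT10, DOT1L, BRG1 or P300 siRNA for 72 h. The HEK293T si-control cells were then given control medium or Wnt3A conditioned medium for 9 h, and the 4 HEK293T knockdowns were given Wnt3A medium. The transfection label of the DOT1L sample reads si-cDOT1L and its title reads si DOT1L. The other 10 groups were each hybridized on 1 array against human reference RNA, and the β-catenin knockdown was set directly against si-control on 2 arrays with the dyes exchanged, which counted as 1 replicate. With 1 biological sample per group no test was possible, so every difference below carries only the scanner program's own error for the spots compared, and none has a check between replicate cultures. All samples are cell lines in bulk culture, in which fewer cells of a type and less RNA per cell cannot be told apart.

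Replication-dependent histone genes are transcribed mainly in S phase, mostly from clusters on chromosomes 6 and 1, and supply H1, H2A, H2B, H3 and H4 for newly made DNA. Their mRNAs normally end in a stem-loop bound by SLBP in place of a poly(A) tail, and their transcription is driven by NPAT at histone locus bodies. Variant genes such as H2AZ1, H3-3A and MACROH2A1 lie outside the clusters, are polyadenylated and are expressed through the cell cycle. The labelling used a primer for polyadenylated RNA, so the cluster signals reflect whatever part of each transcript that primer captured.

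The genes of the 5 cluster families differ in the short sequences found just before their start sites. RefSeq promoters on GRCh38.p14 were matched for 72 of the 79 genes, and the 200 bases before the first listed start were searched on both strands for 4 motifs. CCAAT is bound by the factor NF-Y, and TTTGCAT is most of the octamer known from H2B promoters. The others were TATAA from the core promoter, and GGTCCG, known from H4 promoters. The reverse form of GGTCCG can share letters with CCAAT, and TATAA can overlap its own reverse form. The 6 promoters below belong to genes with large changes after BRG1 knockdown and to H4C4 as an H4 example, and capitals mark these motifs in either orientation. H1-2 is at chr6:26056471-26056670 on the minus strand, H2AC7 at chr6:26199294-26199493 on the minus strand and H2AC19 at chr1:149850861-149851060 on the plus strand. H2BC4 is at chr6:26123927-26124126, H2BC12 at chr6:27146859-27147058 and H4C4 at chr6:26189113-26189312, all on the minus strand.
H1-2: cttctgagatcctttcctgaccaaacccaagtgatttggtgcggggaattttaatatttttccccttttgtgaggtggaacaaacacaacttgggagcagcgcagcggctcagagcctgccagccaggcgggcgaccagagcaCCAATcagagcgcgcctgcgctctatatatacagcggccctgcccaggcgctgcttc
H2AC7: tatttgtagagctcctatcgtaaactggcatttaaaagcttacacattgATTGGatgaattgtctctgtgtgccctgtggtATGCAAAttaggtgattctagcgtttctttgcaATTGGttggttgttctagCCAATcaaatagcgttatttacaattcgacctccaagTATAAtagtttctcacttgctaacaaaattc
H2AC19: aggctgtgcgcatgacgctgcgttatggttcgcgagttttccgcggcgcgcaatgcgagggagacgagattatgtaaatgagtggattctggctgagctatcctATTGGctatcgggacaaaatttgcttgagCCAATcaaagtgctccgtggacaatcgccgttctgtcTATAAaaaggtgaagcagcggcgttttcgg
H2BC4: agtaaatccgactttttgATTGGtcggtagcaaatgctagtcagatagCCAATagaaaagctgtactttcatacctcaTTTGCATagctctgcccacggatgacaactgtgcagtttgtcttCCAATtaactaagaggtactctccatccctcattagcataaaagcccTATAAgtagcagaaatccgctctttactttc
H2BC12: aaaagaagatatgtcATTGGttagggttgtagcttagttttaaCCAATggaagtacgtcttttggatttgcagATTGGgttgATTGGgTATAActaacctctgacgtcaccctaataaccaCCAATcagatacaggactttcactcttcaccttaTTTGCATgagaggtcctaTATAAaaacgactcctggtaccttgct
H4C4: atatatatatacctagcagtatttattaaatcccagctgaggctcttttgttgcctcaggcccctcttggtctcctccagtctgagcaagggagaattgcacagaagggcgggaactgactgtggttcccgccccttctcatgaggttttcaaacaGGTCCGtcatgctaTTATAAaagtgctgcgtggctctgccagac

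CCAAT stood in all 17 H2B promoters, all 14 H2A, all 11 H3 and all 6 H1 promoters, but in 3 of 12 H4 promoters, against 28.9% of the 27305 promoters in the table. TTTGCAT stood in 13 of 17 H2B and 7 of 14 H2A promoters, in 1 of 11 H3 promoters and in no H1 or H4 promoter, against 3.05% of all. GGTCCG stood in 11 of 12 H4 promoters and in 1 promoter each of the H2A, H2B and H3 families, against 7.75% of all. TATAA stood in 51 of 60 cluster promoters and 16% of all. These matches describe letters in a window and not binding.

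The arrays carried 18104 to 31011 well-measured features each, meaning features whose signal in either channel was over 2-fold its local background, and 81 to 94 of the 102 histone probes were among them. The 2 arrays of the β-catenin pair had the fewest well-measured features, 23077 and 18104. No feature was saturated. The arrays lay on 5 slides, here called A to E. Slide A held the β-catenin pair, B the HEK293T si-control in control medium with the MLLT10 and DOT1L knockdowns, C the Ls174T si-control and MLLT10 arrays with the HEK293T BRG1 and P300 arrays, D the Ls174T BRG1 and P300 arrays, and E the HEK293T si-control in Wnt3A alone. Slide and treatment therefore cannot be told apart in any HEK293T comparison with the Wnt3A si-control array, nor in the Ls174T BRG1 and P300 comparisons with si-control. Within-slide values are given beside them where the slides allow. Of the colorectal markers, 10 of 10 were above background on the 4 Ls174T reference arrays and 5 to 8 of them on the HEK293T arrays. All 6 measured HEK293T markers were above background in HEK293T, against 3 to 5 in Ls174T, while 2 to 4 of 4 fibroblast markers and 3 to 4 of 5 immune markers passed the same limit. This limit thus separates the lines only in part. In the Ls174T si-control and the HEK293T si-control in control medium, the log2 ratio of NEFM was -4.79 and 4.85. The VIL1 probes stood at 2.40 and 2.37 against -8.18 and -1.72, but CDX2 at 4.31 and 3.87.

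Each siRNA lowered its own target. The 3 SMARCA4 (BRG1) probes changed by -2.24 to -2.53 on the log2 scale in Ls174T and by -3.95 to -4.00 in HEK293T. The 2 EP300 (P300) probes changed by -0.60 and -1.31 in Ls174T and by -2.35 and -2.98 in HEK293T, so the depletion was shallower in Ls174T. The MLLT10 probe measured in both lines changed by -1.42 in Ls174T and -1.76 in HEK293T. Of 3 DOT1L probes, 2 changed by -1.41 and -1.97 and the other by 0.17 in the DOT1L knockdown. The CTNNB1 probes changed by -2.49 and -2.70 in the β-catenin pair.

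BRG1, the ATPase of SWI/SNF chromatin remodelling complexes, gave the broadest histone response. In HEK293T cells depleted of BRG1, 41 of 69 measured cluster probes were more than 1.5-fold higher than in si-control, and none was more than 1.5-fold lower. Over all 28041 features measured in this comparison 10.2% were higher and 12% were lower. The median log2 change of the cluster probes was 0.76, against 0.01 for all features, and 68 of 69 lay above 0. The 41 probes came from 38 of 58 measured cluster genes. The probes just outside the threshold were H2AC14 at 0.52 and a dim H2BC21 probe at 0.47, and those just inside were H3C2 at 0.60 and H4C9 at 0.66. The plot of histone changes by comparison sets this shift beside the other 8 comparisons.

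**Figure D1:**
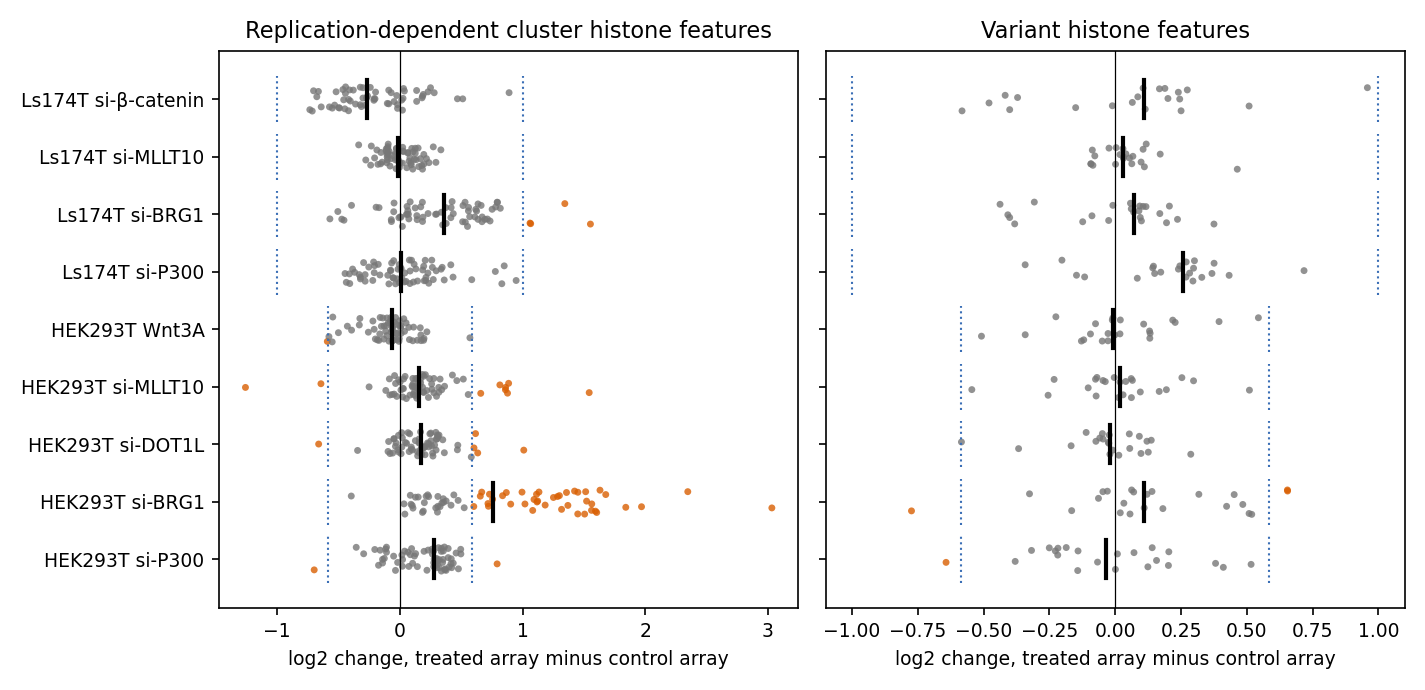
Log2 change of every measured histone probe (treated array minus control array, horizontal axis) in the 9 comparisons (rows), for cluster probes on the left and variant probes on the right. The 2 panels have different horizontal scales. Points are probes, orange where past the fold threshold (dotted lines, 2-fold in Ls174T and 1.5-fold in HEK293T), and black bars are medians. The cluster probes of the HEK293T BRG1 knockdown have a median of 0.76 with 41 of 69 past the threshold, while the variant medians lie between -0.03 and 0.26 in all 9 comparisons.

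H2B genes, whose protein pairs with H2A in the nucleosome, rose on most probes. Near-identical copies may share a probe's signal, so the probes may not be separate readings. In HEK293T, 17 of 19 H2B probes were higher after BRG1 knockdown, with a median log2 change of 1.45 and a range of 0.44 to 1.97. The 2 that were not are both probes of H2BC21, whose other probe rose by 1.42. H2BC12 is a clustered H2B gene, and its log2 ratio to the reference RNA was -1.75 in si-control with Wnt3A, -1.67 in control medium, -1.63 with si-MLLT10, -1.40 with si-DOT1L, -1.31 with si-P300 and 0.22 with si-BRG1. The BRG1 array thus stood alone above the other HEK293T arrays, which lay close together. The change of 1.97 ± 0.33 (program error) was 3.92-fold. H2BC4 changed by 1.68 ± 0.35, made up of 0.75 in the sample channel and -0.89 in the reference channel.

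The linker histone H1-2 had the largest change of the 92 histone probes measured after BRG1 knockdown in HEK293T. Its log2 ratio was -4.15 in HEK293T si-control with Wnt3A, -3.98 in control medium, -3.92 with si-MLLT10, -3.68 with si-DOT1L, -3.67 with si-P300 and -1.12 with si-BRG1. In Ls174T it was -3.49 in si-control, -3.20 with si-MLLT10, -2.66 with si-P300 and -1.94 with si-BRG1. The BRG1 array was highest in both lines. The change was 3.03 ± 0.50, or 8.18-fold, in HEK293T and 1.55 ± 0.47, or 2.93-fold, in Ls174T. Of the other H1 genes in HEK293T, H1-4 changed by 1.63 ± 0.36, with 1.12 in the sample channel alone. H1-3 changed by 1.28 ± 0.31, made up of 0.18 in the sample channel and -1.07 in the reference channel, while the H1-5 probe had sample signal near background.

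H2A genes were split after BRG1 knockdown in HEK293T, with 9 of 18 probes higher and a median of 0.60. H2AC19, a gene of the chromosome 1 cluster, had a log2 ratio of -3.26 in si-control with Wnt3A, -3.19 in control medium, -3.35 with si-MLLT10, -3.03 with si-DOT1L, -2.77 with si-P300 and -0.92 with si-BRG1. In Ls174T the ratio was -3.97 in si-control, -3.79 with si-MLLT10, -3.12 with si-P300 and -2.62 with si-BRG1. Again the BRG1 array was the highest of each line, with the P300 array next. The H2AC19 change was 2.35 ± 0.43 on this probe and 1.51 ± 0.43 on the gene's other probe, and H2AC7 changed by 1.84 ± 0.41. At the other end H2AC6 was at 0.04 ± 0.35, H2AC12 at 0.21 ± 0.37 and H2AC8 at 0.23 ± 0.44, within their program errors.

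H3 genes moved least, with 3 of 16 probes higher and a median of 0.31. The 3 were probes of H3C4, H3C10 and H3C2, at 1.00, 0.84 and 0.60. The other H3C4 probe was at -0.40 ± 0.37, the widest disagreement between probes of 1 gene in this comparison. H4 probes had a median of 0.74 with 9 of 12 higher, led by H4C13, H4C3 and H4C2 at 1.12, 1.12 and 1.09.

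The ratio is formed from 2 channels, and these did not behave alike for all families. The sample channel alone, as log2 signal over the array's 75th percentile, put 32 of 69 cluster probes more than 1.5-fold higher after BRG1 knockdown in HEK293T and 8 more than 1.5-fold lower. Over all features this channel put 11.1% higher and 25.9% lower. For H2B the sample channel gave 18 of 19 probes higher with a median of 1.35, and the reference channel had a median of -0.06. H1-2 changed by 3.05 in the sample channel and 0.05 in the reference channel, and H2BC12 by 1.84 and -0.09. For H3 the sample channel median was -0.20 and the reference channel median -0.38, so their positive ratio came with both channels lower. H4C13 changed by -0.09 in the sample channel and -1.18 in the reference channel, H4C3 by -0.31 and -1.40, and H4C4 by -0.12 and -0.99. The calls of these H4 probes are thus absent from the sample channel, whereas H4C6, at 0.72 by ratio, was at 1.10 in the sample channel and H4C9, at 0.66 by ratio, was at 1.05. The plot of both channels by family shows the H2B shift in the sample channel and its absence in the reference channel.

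**Figure D2:**
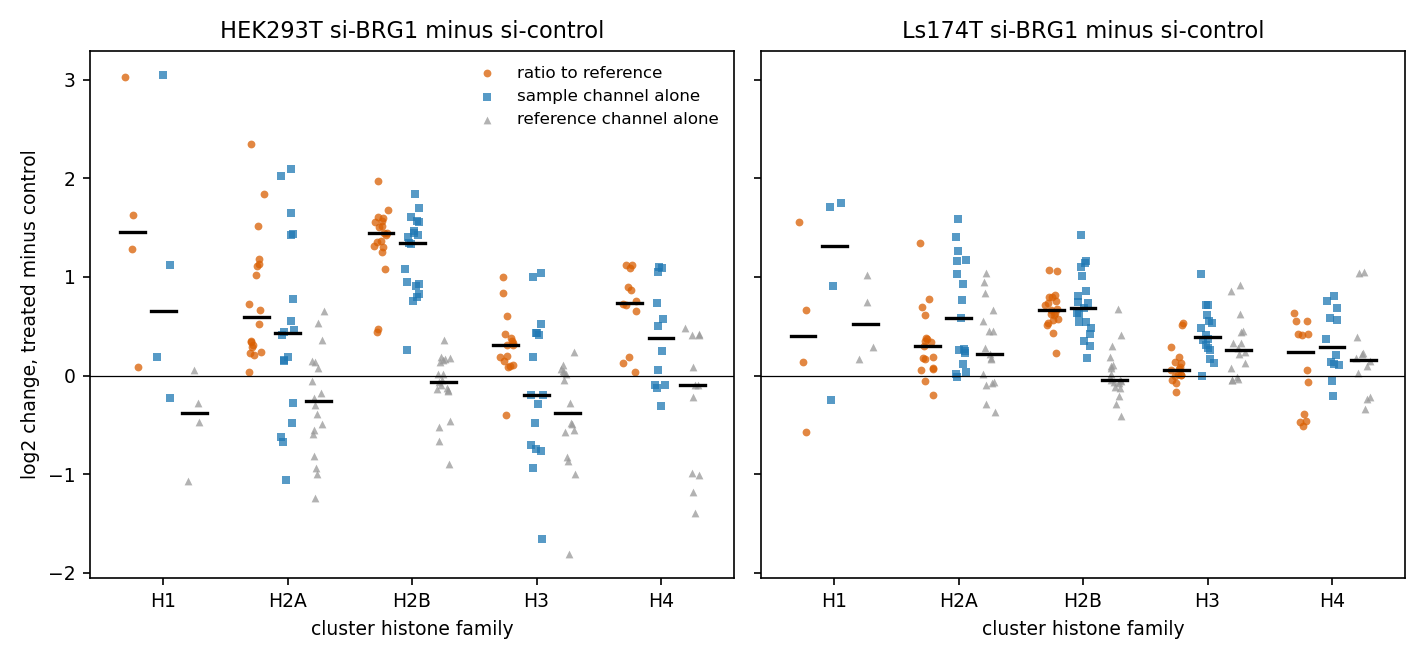
Log2 change of measured cluster probes after BRG1 knockdown by family (horizontal axis) in HEK293T (left) and Ls174T (right), from the ratio to reference (orange circles), the sample channel alone (blue squares) and the reference channel alone (grey triangles). Black bars are medians. In HEK293T the H2B medians are 1.45, 1.35 and -0.06 in that order.

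By ratio, the same pattern held within 1 slide. On slide C, 36 of 67 cluster probes were more than 1.5-fold higher in the HEK293T BRG1 knockdown than in the P300 knockdown and none was lower, against 10.5% and 9.63% of all features. H2B had 18 of 19 probes higher with a median of 1.10, and H1-2 was higher by 2.56, H2AC19 by 1.85 and H2BC12 by 1.53. H3 again had few, 2 of 16. The variants had 6 of 22 probes higher in this comparison, with a median of 0.05. Against the control medium array of slide B, BRG1 knockdown gave 35 of 67 cluster probes higher, and none lower, with 7.07% and 7.74% of all features. Neither of these comparisons uses slide E, but the reference channel of some probes was low on the BRG1 array itself. On the HEK293T BRG1 and P300 arrays it stood at -1.06 and 0.07 for H2BC4, and at 3.52 and 4.38 for H4C13. The sample channels of these probes lay close together, at -1.44 and -1.56 and at 4.72 and 4.77. For H2BC12 the reference channel stood at 3.78 and 3.79, and the sample channel at 3.97 and 2.47.

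In Ls174T the BRG1 response was smaller and ran the same way for H2B, H1-2 and H2AC19. Past 2-fold, 4 of 68 cluster probes were higher and none lower, against 3.86% higher and 1.4% lower among all features, which is close to the background share. The median of the cluster probes was 0.36, against -0.02 for all features, and 56 of 68 lay above 0. All 19 H2B probes lay above 0, with a median of 0.66 and a range of 0.23 to 1.07. The 4 past 2-fold were H1-2, H2AC19 at 1.34 ± 0.53, H2BC12 at 1.06 ± 0.39 and a dim H2BC21 probe. The H3 median was 0.06 and the H4 median 0.24. The sample channel alone put 14 of 68 cluster probes past 2-fold higher and none lower, with 9.34% and 1.39% of all features. On slide D, BRG1 over P300 gave 1 of 69 cluster probes past 2-fold higher and none lower, against 1.27% and 1.01% of all features, with a median of 0.35 and 60 of 69 above 0.

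The BRG1 comparisons of the 2 lines share no array but both use slide C, which holds the control array in Ls174T and the BRG1 array in HEK293T. A difference between slides would therefore enter the 2 changes with opposite signs, and its part in the values below was not tested. Over 68 cluster probes Pearson's r was 0.574 and Spearman's rho 0.560, as a description across probes that share arrays, families and possibly signal. Of these probes 55 lay above 0 in both lines, and 60 had the larger change in HEK293T. H2A probes correlated at 0.730 (n = 17), whereas the 12 H4 probes correlated at -0.703. H4C2, H4C3, H4C4 and H4C13 changed by -0.46, -0.39, -0.51 and -0.47 in Ls174T, and by 1.09, 1.12, 0.90 and 1.12 in HEK293T. The reference channel of H4C4 and H4C13 was higher on slides D and E than on slides B and C, as given with the MLLT10 comparison. That of H4C3 stood at 6.28 to 6.64 on D and E and at 5.25 to 5.75 on B and C. For H4C2 the ranges overlapped, at 2.69 to 3.01 and at 2.00 to 2.72.

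**Figure D3:**
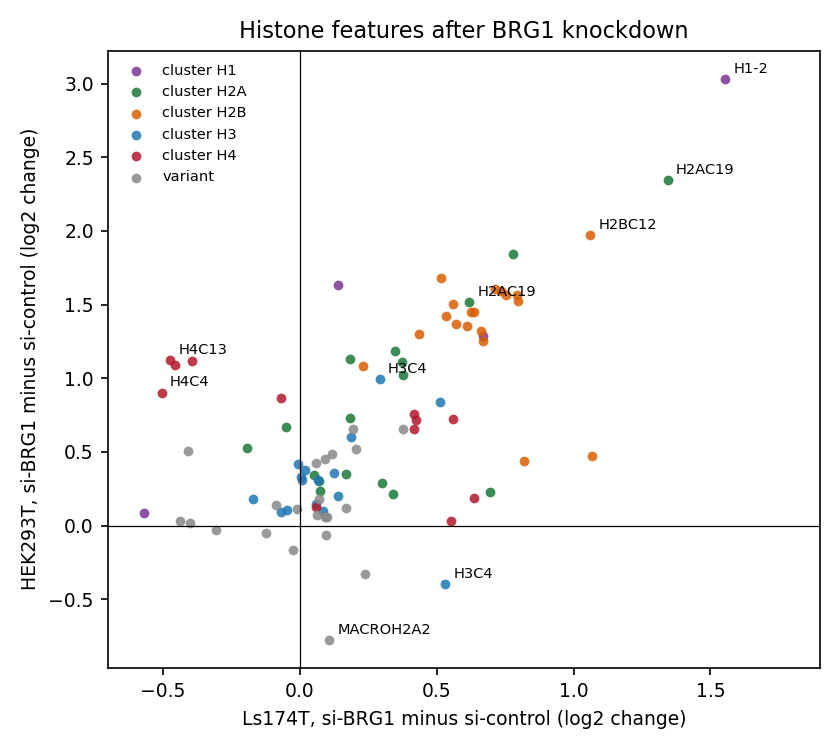
Log2 change after BRG1 knockdown in Ls174T (horizontal axis) against HEK293T (vertical axis), each point 1 histone probe coloured by family. H1-2, H2AC19 and H2BC12 stand at the upper right, at 1.55 and 3.03, 1.34 and 2.35, and 1.06 and 1.97, and a group of H4 probes stands at the upper left.

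The TTTGCAT letters are set beside the BRG1 changes as a description of few probes, and whether they bear on them was not tested. In HEK293T, 15 H2B probes of genes with this motif had a median BRG1 change of 1.45, and 4 probes of genes without it 1.40. For H2A the medians were 0.49 over 8 probes with it and 0.73 over 9 without it. In Ls174T the H2A order was the other way, at 0.35 over 7 probes with it and 0.18 over 9 without it. The H2B medians there were 0.66 with it and 0.65 without it. H1-2, with the largest change, had CCAAT and neither of the other 3 motifs in its window.

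Genes that act in the histone supply chain were read from lists, whose counts stand against 10.2% of all features higher and 12% lower. Of 25 measured probes for histone mRNA synthesis and processing, 2 were higher and 1 lower after BRG1 knockdown in HEK293T, with a median of 0.06. The 2 were ZNF473, a U7 snRNP-associated factor, at 0.67 on 1 of its 2 probes, and the RNA-binding protein SSB at 0.66, and the 1 was the cleavage factor CSTF2 at -0.64. NPAT was within the threshold at 0.44 and 0.43, and SLBP did not pass it either. Of 35 DNA replication probes none was higher and 5 were lower, with a median of -0.22, and the 5 included probes of UHRF1 at -0.77 and CDT1 at -0.69 and -0.81. Of 33 histone chaperone probes 1 was higher, for ASF1A at 0.59, with a median of -0.10. In Ls174T, BRG1 knockdown left every probe of the 3 lists within 2-fold, with medians of 0.00 for processing, -0.21 for DNA replication and -0.07 for chaperones. The cluster histone probes thus lay above 0 where the DNA replication probes lay mostly below it, with 11 of 35 above 0 in HEK293T and 4 of 35 in Ls174T. In the same HEK293T comparison 4 of 8 colorectal, 2 of 4 fibroblast and 2 of 4 immune marker probes were lower, with medians of -0.55, -0.65 and -0.65, 3 of 8 HEK293T marker probes were higher, and their part in the histone result was not tested.

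MLLT10 and DOT1L form the complex that methylates H3K79. Their knockdowns left most cluster histones near si-control in HEK293T, apart from H1-3 and a set of H4 probes. With si-MLLT10, 7 of 68 cluster probes were higher and 2 lower, against 3.38% and 4.05% of all features, with a median of 0.16. With si-DOT1L, 4 of 67 were higher and 1 lower, against 2.09% and 3.68%, with a median of 0.17. Both comparisons use the same Wnt3A si-control array, so their likeness is not independent. Beside H1-3 and the H4 set, H1-4 at 0.81 and an H2AC20 probe at 0.66 were higher with si-MLLT10. The lower probes were H4C1 at -1.26 and an H2BC21 probe at -0.64 with si-MLLT10, and the same H2BC21 probe at -0.66 with si-DOT1L, each of them dim, with sample signal near background on at least 1 array compared. No variant probe passed the threshold in either, but MACROH2A2 was just short of it with si-DOT1L, at -0.58 ± 0.43. In the sample channel alone that change was 0.04. With si-MLLT10 the MACROH2A2 ratio change was -0.54 ± 0.43. Among the supply genes, LSM11, a U7 snRNP protein, was higher in both at 0.78 and 0.95 on 1 probe, as was SUPT16H, a subunit of the chaperone FACT, at 0.87 and 0.69, and CABIN1 was higher with si-MLLT10 at 0.67. No DNA replication probe passed the threshold in either.

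H1-3, a linker histone gene, was past the threshold in 5 of 9 comparisons, all of which use the 1 Wnt3A si-control array of slide E, so they are not separate observations. Its log2 ratio in HEK293T was -0.77 in control medium, -1.36 in si-control with Wnt3A, 0.18 with si-MLLT10, -0.35 with si-DOT1L, -0.07 with si-BRG1 and -0.57 with si-P300. The Wnt3A si-control array was the lowest of the 6. In Ls174T the ratio was -2.54 in si-control, -2.44 with si-MLLT10, -1.87 with si-BRG1 and -2.31 with si-P300, below every HEK293T array. The changes against the Wnt3A si-control were 1.54 ± 0.31 with si-MLLT10, 1.01 ± 0.32 with si-DOT1L, 1.28 ± 0.31 with si-BRG1 and 0.79 ± 0.32 with si-P300. In the sample channel alone these were 0.56, 0.08, 0.18 and -0.16, of which none passed 1.5-fold. The reference channel of this probe, which should carry the same RNA throughout, stood at 1.66 to 1.70 on slides D and E and at 0.45 to 0.76 on slides B and C. Against control medium on slide B, H1-3 was higher by 0.95 with si-MLLT10 and by 0.42 with si-DOT1L.

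H4C2, H4C3, H4C4 and H4C13 moved as a set by ratio, and near-identical copies may share a probe's signal. The other H4 probes measured with si-MLLT10 lay between -1.26 for the dim H4C1 and 0.34 for H4C11. H4C4 had a log2 ratio of 0.74 in control medium, 0.24 in si-control with Wnt3A, 1.10 with si-MLLT10, 0.87 with si-DOT1L, 1.14 with si-BRG1 and 0.66 with si-P300, the Wnt3A si-control array being lowest. In Ls174T it was 1.16 in si-control, 1.31 with si-MLLT10, 0.66 with si-BRG1 and 0.73 with si-P300, the 2 arrays of slide D being lowest. With si-MLLT10 the 4 probes changed by 0.86 to 0.89, all past the threshold, and H4C2, H4C4 and H4C13 passed it with si-DOT1L at 0.62, 0.63 and 0.60. H4C3 was just short of it with si-DOT1L, at 0.58. The sample channel gave -0.03 for H4C4 and 0.43 for H4C13 with si-MLLT10. From si-control to si-MLLT10 in Wnt3A, that channel went from 6.55 to 6.35 for H4C3 and from 3.22 to 3.76 for H4C2. The 4 probes thus did not move together in the sample channel. The reference channel of H4C4 stood at -0.10 to 0.18 on slides D and E and at -1.12 to -0.67 on slides B and C. That of H4C13 stood at 4.55 to 4.70 and at 3.52 to 4.38. The 3.52 was the HEK293T BRG1 array alone, and the other arrays of slides B and C stood at 4.15 to 4.38. Within slide B, against control medium, no H4 probe was past 1.5-fold for either knockdown, all 11 lay above 0, and the medians were 0.30 for si-MLLT10 and 0.10 for si-DOT1L. Against control medium, si-MLLT10 put 2 of 66 cluster probes higher and none lower, with 4.06% and 3.76% of all features. For si-DOT1L no cluster probe of 66 was higher or lower, with 3.1% and 2.82% of all features. Between the 2 knockdowns no cluster probe of 67 differed past 1.5-fold, with 1.97% of all features higher and 1.68% lower in si-MLLT10. The sample channel alone put 2 cluster probes higher and 5 lower with si-MLLT10, where 3.99% and 13.2% of all features were, and 0 higher and 6 lower with si-DOT1L, where 2.22% and 13.2% were. The plot of log2 ratios by array shows H1-3 and H4C4 with their low Wnt3A si-control value.

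**Figure D4:**
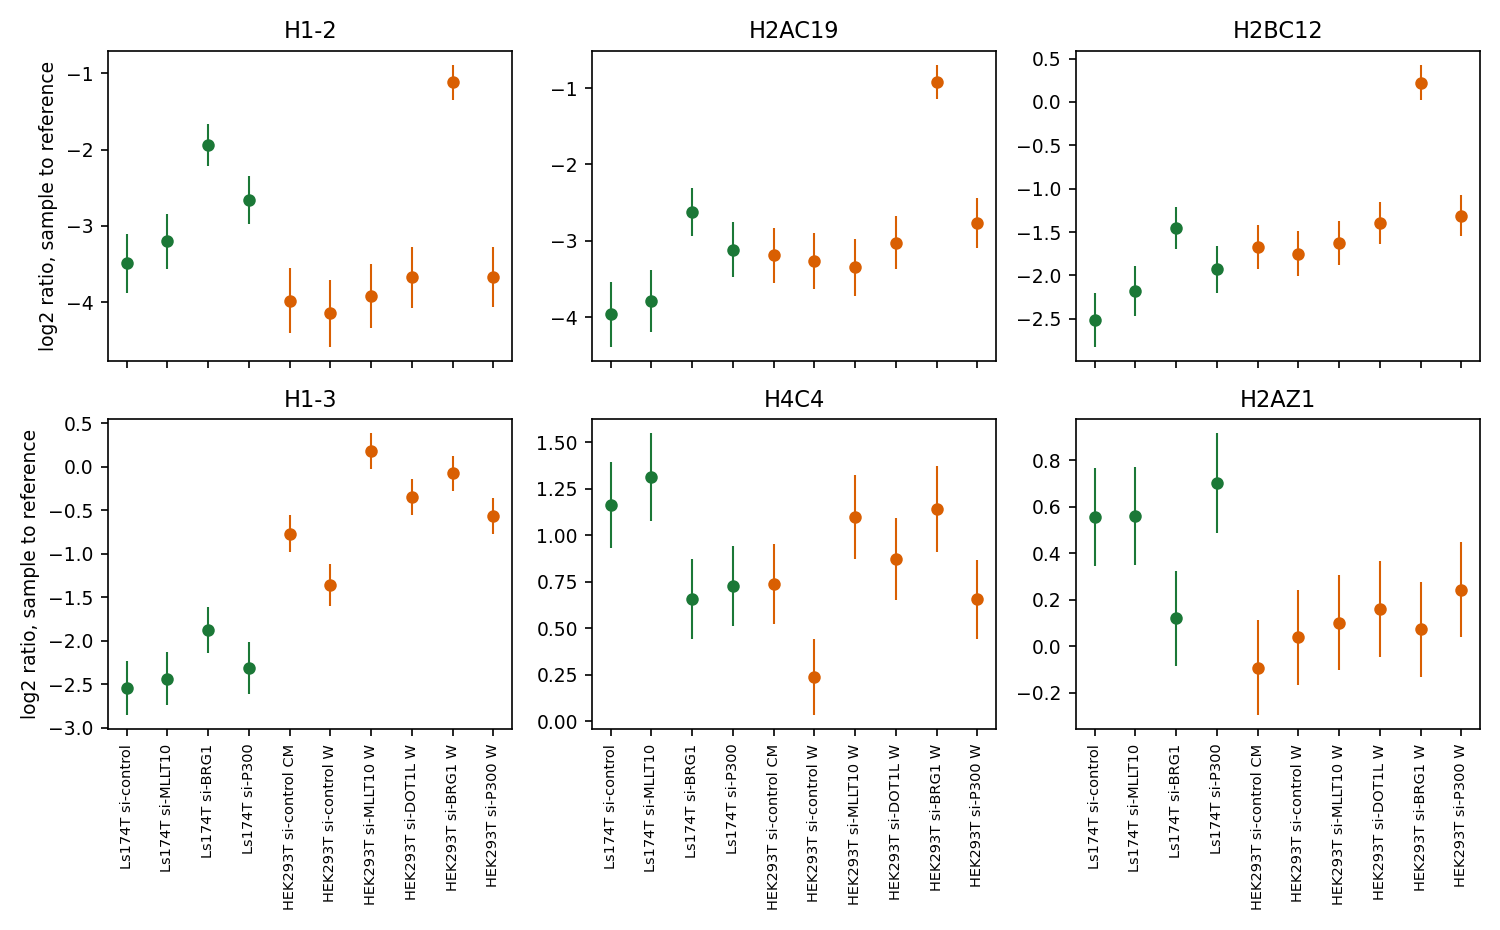
Log2 ratio of sample to reference RNA (vertical axes, a separate scale per gene) for 1 probe each of 6 histone genes on the 10 reference arrays, with W for Wnt3A medium and CM for control medium. Bars are the scanner program's error, green is Ls174T and orange HEK293T. H1-2, H2AC19 and H2BC12 stand highest in the BRG1 knockdown of each line, whereas H1-3 and H4C4 stand lowest among HEK293T arrays in the Wnt3A si-control.

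P300, an acetyltransferase, gave smaller changes. In HEK293T, 1 of 67 cluster probes was higher and 1 lower, against 4% and 8.26% of all features, with a cluster median of 0.28. These were H1-3 and an H2BC21 probe at -0.70 ± 0.50, whose other probes were at 0.35 and -0.04. Against control medium none of 66 was higher and 1 lower, with 4.48% and 6.79% of all features. The sample channel alone put 3 higher and 9 lower, with 4.18% and 18.9% of all features. H2AC19 was next among the rises at 0.50 ± 0.49, with the variant H1-7 at 0.52 by ratio, from -1.34 in the sample channel and -1.84 in the reference channel. In Ls174T, no cluster or variant probe passed 2-fold, while 4.15% of all features were higher and 1.76% lower. The sample channel alone put 3 cluster probes higher and none lower in Ls174T, with 8.77% and 1.85% of all features. By ratio the H2B probes all lay above 0 with a median of 0.21, and all 12 H4 probes lay below 0 with a median of -0.30. Among probes well above background H2AC19 and H1-2 were highest, at 0.85 ± 0.55 and 0.83 ± 0.50, and H4C12, H4C4 and H4C6 lowest, at -0.45, -0.44 and -0.41. In the sample channel alone H4C12 and H4C6 were at -0.32 and -0.70, but H4C4 was at 0.59, with 1.02 in the reference channel.

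Wnt3A changed the cluster histones little. In si-control HEK293T cells, 9 h of Wnt3A put none of 67 cluster probes more than 1.5-fold higher and 1 lower, against 4.04% and 2.68% of all features. The median was -0.06. The 1 was H1-3 at -0.59 ± 0.32, just past the threshold, and H4C13 and H4C3 followed at -0.58 and -0.55. In the sample channel H1-3 was at 0.67 and H4C13 at 0.00, with reference channel changes of 1.24 and 0.56. The sample channel alone put 13 of 67 cluster probes higher and none lower, with 16.1% and 3.76% of all features. Slide cannot be told apart from Wnt3A here.

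β-catenin knockdown in Ls174T moved no histone probe past 2-fold, of 60 cluster and 20 variant probes measured, while 4.24% of all features were higher and 1.36% lower. Most cluster probes lay below 0, 44 of 60, with a median of -0.27 against -0.02 for all features. H2B had 15 of 16 probes below 0 with a median of -0.32, and H4 had 8 of 10 with a median of -0.46. H4C4 was at -0.67 and -0.80 on the 2 arrays of the pair, H2AC17 at -0.73 and -0.69, and H2AC14 at -0.69 and -0.72. Both arrays gave like values for these probes, which were among the largest falls. The other probes of H2AC17 and H2AC14 were at 0.18 and -0.40. The arrays were less alike for H2BC9, at -0.06 and -0.34, and H2BC15, at -0.23 and -0.66, while H2BC13 was at -0.03 and -0.01. A probe of the variant H2AZ2 differed in sign, at 0.34 and -0.21. H2AC19 was higher on both arrays, at 0.78 and 1.00, with one H3C4 probe at 0.30 and 0.72. The DNA replication list also lay low, with none of 31 probes above 0, a median of -0.57 and RFC3, a clamp loader subunit, past 2-fold at -1.50. NPAT was at -0.59 and -0.67 and SLBP at -0.53, and the processing list had a median of -0.38 with none of 19 probes above 0 and 1 past 2-fold, a ZNF473 probe that was not well above background. Of 13 measured probes for colorectal markers 8 were more than 2-fold higher in the same comparison, with a median of 1.65, and their part in the histone values was not tested.

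MLLT10 knockdown in Ls174T left every histone probe within 2-fold, of 66 cluster and 22 variant probes, against 0.753% of all features higher and 0.983% lower. The cluster median was -0.02 and the variant median 0.03. No cluster probe passed 2-fold in the sample channel alone either, with 0.705% of all features higher and 1.06% lower. The widest changes were H1-7 at 0.46 and H2AC17 at -0.34, with H2BC12 at 0.33, H1-2 at 0.29, H4C9 at -0.28 and H2AC4 at -0.23, each within or close to its program error.

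The variant histones mostly stayed near si-control where the clusters moved. In the HEK293T BRG1 knockdown 2 of 23 variant probes were higher and 1 lower, with a median of 0.11, against 10.2% and 12% of all features. The 2 were a probe of H3-3B, which encodes H3.3, at 0.65, whose other probes were at 0.52 and 0.42, and 1 of 2 probes of H2AZ2 at 0.65, whose other probe was at -0.17. H2AX, the variant phosphorylated at DNA breaks, was within the threshold at 0.48, and the 5 probes of H3-3A lay between -0.05 and 0.11 by ratio, while 4 of them were at -0.43 to -0.78 in the sample channel alone and at -0.51 to -0.81 in the reference channel. MACROH2A2, a variant with a macro domain, had a log2 ratio of 2.12 in control medium, 2.67 in si-control with Wnt3A, 2.12 with si-MLLT10, 2.08 with si-DOT1L, 1.89 with si-BRG1 and 2.29 with si-P300. Only the Wnt3A si-control array stood apart, above the other 5. The BRG1 change of -0.77 ± 0.42 was past the threshold, with -0.14 in the sample channel and 0.67 in the reference channel, and against control medium it was -0.23. MACROH2A1 stayed between -0.37 and 0.25 in all 9 comparisons.

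H2AZ1, the variant set at promoters and enhancers, was at -0.40 to -0.48 on its 3 probes after β-catenin knockdown and at -0.31 to -0.44 after BRG1 knockdown in Ls174T, and at -0.03 to 0.03 after BRG1 knockdown in HEK293T. In the sample channel alone, the HEK293T probes at 0.03 and 0.02 by ratio were at -1.04 and -0.35, and the remaining probe was also lower. Their reference channel was lower too, so these ratios near 0 came with both channels lower. In Ls174T, the H2AZ1 probe at -0.31 by ratio after BRG1 knockdown was at 0.17 in the sample channel alone. The other 2 probes stayed lower in that channel. H1-10 was at -0.58 after β-catenin knockdown, 0.39 with Wnt3A and -0.33 after BRG1 knockdown in HEK293T. H2AJ was the highest variant after β-catenin knockdown at 0.96 ± 0.16, from 0.85 and 1.07 on the 2 arrays, and its second measured probe was at 0.74 and 0.27. The signal of that second probe was 196 times background on the first array but 3.75 times on the second.

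Between the 2 lines, the cluster probes past 2-fold were mostly those of H2A. Between the Ls174T si-control and the HEK293T si-control in control medium, which lie on different slides, 6 of 66 cluster probes were more than 2-fold higher in Ls174T and 1 lower, against 14.3% and 19.1% of all features. In both directions the cluster share was below that of all features. All 6 were H2A probes, of 17 measured. They included H2AC11, higher by 3.14 ± 0.37, H2AC15 by 2.81, H2AC17 by 2.06, H2AC12 by 2.05 and H2AC14 by 1.76 and 1.08. The other H2AC17 probe was higher by only 0.50. The 1 was H1-3, at -1.77. Among the variants, 3 of 22 probes were higher, close to the 14.3% of all features, and those of H2AJ were so by 4.22 and 3.57. The median difference was -0.39 for H2B, 0.16 for H3 and 0.11 for H4, with no probe of these past 2-fold.

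Not every histone probe could be read. Of the 102, 79 were well measured on all 12 arrays, 5 on none, and 93 entered at least 1 comparison. The 9 that entered none were 8 cluster probes, among them those of H1-1, H1-6 and H2BC1, and the probe of the oocyte linker histone H1-8. Probes of 1 gene did not always give 1 answer. Among 15 genes with more than 1 measured probe, 5 had probes of opposite sign in the HEK293T BRG1 comparison and the median range between probes was 0.45. The widest ranges over the 9 comparisons were in H2BC21, H2AC17, H2AC19 and H3C4.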

How the data were processed

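Expression was measured on 12 two-colour Agilent whole human genome arrays, 10 against reference RNA in Cy5 and 2 as a dye exchange of si-b-catenin against si-control. The authors deposited the scanner program's output, made with Agilent Feature Extraction 10.5.1.1 per the file headers (8.5.1.1 per the labels). It gives background-subtracted, dye-normalized intensity per channel, their log10 ratio and a score for its error, both deposited on the log10 scale. Other deposited columns are flags. The deposited value table holds the same log10 ratios.

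Ratios were turned to sample over reference, put on the log2 scale and subtracted, treated minus control. The 2 dye-exchange arrays were averaged. Features were used where either channel exceeded 2 times its local background on every array compared, without outlier flags. A probe was called past 2-fold for the Ls174T arrays, or past 1.5-fold for those of HEK293T. Program errors were combined in quadrature. Probes of a gene were kept apart. Of features with a RefSeq identifier, 94.9% were given a symbol from RefSeq. Probe sequences were not used here. Array number, not depth, limits the precision, and no test was run. Genes were named by size (3 highest and 3 lowest per comparison, sample channel well above background), by recurrence (past the fold in 3 of 9 comparisons) or from a list of variants. Other cluster genes, such as H1-4, H1-5, H2AC7, H2AC11, H2BC4 and H3C10, were named after their values were seen. Histone members and all lists were chosen with earlier results of these data known. A few single-gene values are not reported here. Code was checked on simulated arrays. Python 3.11.15 with pandas 2.3.3, and limma 3.58.1 in R 4.3.3 for normexp (offset 50) with loess, were used. Alternatives covered background correction, channel, filter, threshold, probe averaging and slide.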

Additional observations from a re-analysis of the deposited data

Results flagged for a closer look

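Several named histone probes moved in opposite directions in the 2 lines under the same siRNA, each by more than its program error. The difference itself was not tested. With si-BRG1, H4C2 was at -0.46 in Ls174T and 1.09 in HEK293T, H4C13 at -0.47 and 1.12, H4C3 at -0.39 and 1.12, and H4C4 at -0.51 and 0.90. In the sample channel alone H4C2 was at -0.21 and 0.05, H4C13 at -0.05 and -0.09, H4C3 at 0.68 and -0.31 and H4C4 at 0.56 and -0.12, and the reference channel of H4C4 moved by 1.04 and -0.99. One H3C4 probe was at 0.53 in Ls174T and -0.40 in HEK293T. The other H3C4 probe was at 0.29 and 1.00.

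With si-P300, H2AC14 was at -0.33 in Ls174T and 0.39 in HEK293T, H2BC21 at 0.78 and -0.70, and H4C4 at -0.44 and 0.42. In the sample channel alone H4C4 was at 0.59 and -0.86, the opposite directions, and its reference channel moved by 1.02 and -1.26. The other H2BC21 probes were at 0.20 and 0.35, and at 0.95 and -0.04. The other H2AC14 probe was at -0.08 and 0.27, within its program error in both lines.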

How the results depend on the processing

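The medians of the cluster and variant probes moved by less than the program error under every alternative run. That error is the median error of single probes, so a group median could turn sign and still count as unmoved. In the sample channel alone, the HEK293T si-BRG1 variant median went from 0.11 to -0.14. The Wnt3A cluster median went from -0.06 to 0.18 there. Within slide D, the variant median of si-BRG1 over si-P300 in Ls174T was -0.19, against 0.07 over si-control. Counts moved more. With normexp and loess, si-MLLT10 had 0 cluster probes lower and si-DOT1L 2 higher and 0 lower in HEK293T. From the sample channel alone, Ls174T had 14 higher with si-BRG1 and 3 with si-P300, and HEK293T had 13 higher and 0 lower with Wnt3A, 2 and 5 with si-MLLT10, 0 and 6 with si-DOT1L, 8 lower with si-BRG1, and 3 and 9 with si-P300. In that channel, H1-3 turned to 0.67 with Wnt3A and -0.16 with si-P300, H4C13 to -0.094 with si-BRG1, H4C3 to -0.20 with si-MLLT10 and -0.31 with si-BRG1, and H4C4 to -0.032 with si-MLLT10, -0.22 with si-DOT1L and -0.12 with si-BRG1. Of 375 changes of named probes, 56 within the fold threshold also turned sign in that channel by more than the program error, among them H4C4 with si-P300 at -0.86 in HEK293T and 0.59 in Ls174T, and H4C3 with si-DOT1L at -0.47. The cause was not tested. With both channels required above background, si-MLLT10, si-DOT1L and si-P300 had 0 lower in HEK293T. With no filter on signal, Ls174T had 2 higher with si-MLLT10, 1 lower with si-BRG1 and 2 higher with si-P300, and HEK293T had 2 higher and 5 lower with Wnt3A, 6 lower with si-MLLT10, 4 lower with si-DOT1L, 1 lower with si-BRG1, and 3 and 3 with si-P300. With outlier features kept, Wnt3A had 2 lower.

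With the fold thresholds exchanged between the lines, β-catenin knockdown had 1 higher and 6 lower, Ls174T si-BRG1 20 higher and si-P300 5 higher, Wnt3A 0 lower, HEK293T si-MLLT10 1 and 1, si-DOT1L 1 and 0, and si-P300 0 and 0. With 1 value per gene, Ls174T si-BRG1 had 2 higher, and lower counts were 1 for HEK293T si-MLLT10 and 0 for si-DOT1L and si-P300. Within slides, Ls174T si-BRG1 over si-P300 had 1 higher, HEK293T si-MLLT10 had 2 and 0 against control medium and 0 and 0 against si-DOT1L, and si-DOT1L had 0 and 0 against control medium. Chosen after seeing the data, si-P300 against control medium had 0 higher, and without H2B probes si-BRG1 had 24 higher in HEK293T and 2 in Ls174T, with lower counts of 1 for si-MLLT10 and 0 for si-DOT1L and si-P300. Either β-catenin array alone gave 0 to 1 cluster probes higher and 0 to 0 lower, with cluster medians of -0.30 to -0.20 and variant medians of 0.02 to 0.13. No paired analysis was possible because the labels give no replicate numbers across groups. Signal over background limits the dimmest probes, and 1 sample per group leaves every change without a spread between cultures.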
